A study of Mus musculus with 8 samples.

Results

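CCL17 and CCL22 are the known chemokine ligands of CCR4, a receptor found on regulatory T cells, type 2 helper T cells and skin-homing T cells. Dendritic cells, the cells that present antigen to T cells, are a main source of both ligands. The genes examined here are Ccl17, Ccl22 and Ccr4. They were chosen by name as the ligands and receptor of this axis, and every array probe annotated to them was taken, which gave 3 of the 45281 probes on the array, 1 for each gene, among 19057 named genes. Probes for 2 of the 3 genes, Ccl17 and Ccl22, passed the detection filter, and that for Ccr4 did not.

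All cells came from C57BL/6 mice of the genotype CCL17E/+, aged 2 to 5 months, in which EGFP reports the activity of Ccl17. These animals are heterozygous, so in every group 1 Ccl17 allele carried the reporter. All mice had received 100 µg of LPS, the bacterial endotoxin, and organs were taken 15 h later, so no group without LPS is available for comparison. Cells lacking NK1.1 and CD8alpha but bearing CD11c and CD11b were sorted from mesenteric and peripheral lymph nodes (LN) when EGFP-positive, and from the spleens of the same mice when EGFP-negative. Each group had 4 arrays. Organ and reporter status changed together, so their parts in any difference cannot be told apart. Nothing in the sources used here says how many mice made up a sample, so every p-value here reflects only how these samples vary, which may be technical.

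CCL22 binds CCR4 more tightly than CCL17 and is the stronger trigger of its uptake into the cell. In dendritic cells, GM-CSF, TSLP and the STAT6 pathway of IL-4 and IL-13 are known to raise transcription of these ligands, while interferon gamma is known to restrain it. Ccl22 and Ccl17 lie close together on mouse chromosome 8, with the fractalkine gene Cx3cl1 between them. Ccr4 lies on chromosome 9.

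The sequences just upstream of both ligand genes are shown because both genes were high in the same sorted samples. Each is the 250 bases before the transcription start from RefSeq's GRCm38.p6, on the plus strand, at chr8:94810203-94810452 for Ccl17 and chr8:94745434-94745683 for Ccl22. Capitals mark matches to the motifs described next.
Ccl17: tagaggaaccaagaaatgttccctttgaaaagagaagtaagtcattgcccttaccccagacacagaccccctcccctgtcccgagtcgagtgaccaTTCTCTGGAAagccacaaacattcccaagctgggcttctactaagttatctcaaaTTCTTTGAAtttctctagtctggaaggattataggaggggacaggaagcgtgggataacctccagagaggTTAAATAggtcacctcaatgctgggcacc
Ccl22: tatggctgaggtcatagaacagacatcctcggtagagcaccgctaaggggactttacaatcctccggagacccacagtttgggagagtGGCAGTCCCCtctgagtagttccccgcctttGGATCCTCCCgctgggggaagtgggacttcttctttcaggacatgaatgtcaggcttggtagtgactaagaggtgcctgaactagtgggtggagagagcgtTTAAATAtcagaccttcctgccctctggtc
Both stretches held the AT-rich run TTAAATA, of the TATA type, close to the start. Its first base lay 29 bases before the start in Ccl17 and 30 in Ccl22, and 4.18% of the 32851 promoters of this length held it on either strand. That run was added to the search after the sequences had been read. The STAT6-type motif, TTC followed after 4 bases of any kind by GAA, occurred in Ccl17 starting 154 bases before the start. The general STAT spacing TTCNNNGAA occurred there starting 99 bases before it. Those motifs, which read the same on both strands, were in 5.85% and 7.02% of all promoters and had no match in the Ccl22 stretch. An NF-kappaB-type pattern, GGG followed after 5 bases of any kind by CC, matched 2 times in Ccl22, both on the opposite strand, with the farther match starting 162 bases before the start, and 45.8% of all promoters held that pattern. The AP-1 motif TGANTCA, held by 6.75% of all promoters, had no match in either stretch. Nor had the interferon-stimulated response element, searched as GAAA repeated after 2 bases of any kind and held by 2.98%. None of the marked matches overlapped another, and none of the motifs matched the same stretch of Cx3cl1. A match is a description of letters and does not show a bound factor.

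Ccl17 defined the sort, so its levels are a check of the labels and carry no test. On the LN arrays the Ccl17 probe had a deposited bead intensity of 8508, 5010.4, 5970.1 and 5368 for replicates 1 to 4. On the spleen arrays it had 115, 158, 137 and 93.7. Every LN value lay far above every spleen value.

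Ccl17 was also above background in the cells sorted as EGFP-negative. Its detection p, the share of negative control beads at least as bright, was 0.00427, 0, 0 and 0.00107 on spleen replicates 1 to 4, under the limit of 0.01 on each. Normalized log2 levels of Ccl17 averaged 12.51 ± 0.33 (SD, n = 4) across LN samples and 6.24 ± 0.50 (SD, n = 4) across spleen samples. The log2 fold was 6.27 ± 0.28 (SE), or 77.2-fold. The probe's place in the transcript is not given in the sources used here, so whether it also reads RNA of the reporter allele is unknown.

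Ccl22, which was not used in the sort, was bright in every LN sample and not detected in any spleen sample. Its intensity was 1371, 545, 635 and 568 on LN replicates 1 to 4, each with a detection p of 0. On spleen replicates 1 to 4 it was 87.7, 89.6, 61.6 and 70.9, with detection p values of 0.185, 0.0887, 0.589 and 0.0962. All 4 LN values lay above all 4 spleen values, and 22.2% of all genes tested had groups that did not overlap in this or the opposite direction.

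The normalized log2 intensity of Ccl22 was 9.28 ± 0.56 (SD, n = 4) in LN and 4.80 ± 0.23 (SD, n = 4) in spleen. Because the spleen values lay below the detection limit, its difference is a bound: Ccl22 was at least 13.3-fold higher in LN, the mean of the LN arrays against the lowest detected signal on each spleen array. All such bounds hold for this background correction and offset alone: in the authors' processed values the Ccl22 means differed by 3.06 on the log2 scale, and without background subtraction by 2.84, both less than this bound. The limma test across all genes gave Ccl22 an adjusted p of 1.32e-05, with higher values in 4 of 4 LN samples. Ccl22 had passed the filter only through the LN arrays, but with no filter on detection its adjusted p was 3.06e-06, within 2.91e-06 to 0.00338 over the alternatives. An exact two-sided permutation test of this gene alone gave p = 0.0286, the smallest that 70 arrangements allow.

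Each BeadChip carried 2 arrays of each group, so the difference could be read within each. On the first BeadChip Ccl22 averaged 9.39 in LN and 4.86 in spleen on the log2 scale. On the second it averaged 9.17 and 4.75. The spleen means are background levels, so no size is read from these. Normalized and fitted alone, each BeadChip still gave a call for Ccl22, with adjusted p values of 8.45e-05 and 0.00338 by limma. In these bulk samples, fewer cells with Ccl22 and less Ccl22 RNA per cell cannot be told apart.

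**Figure D1:**
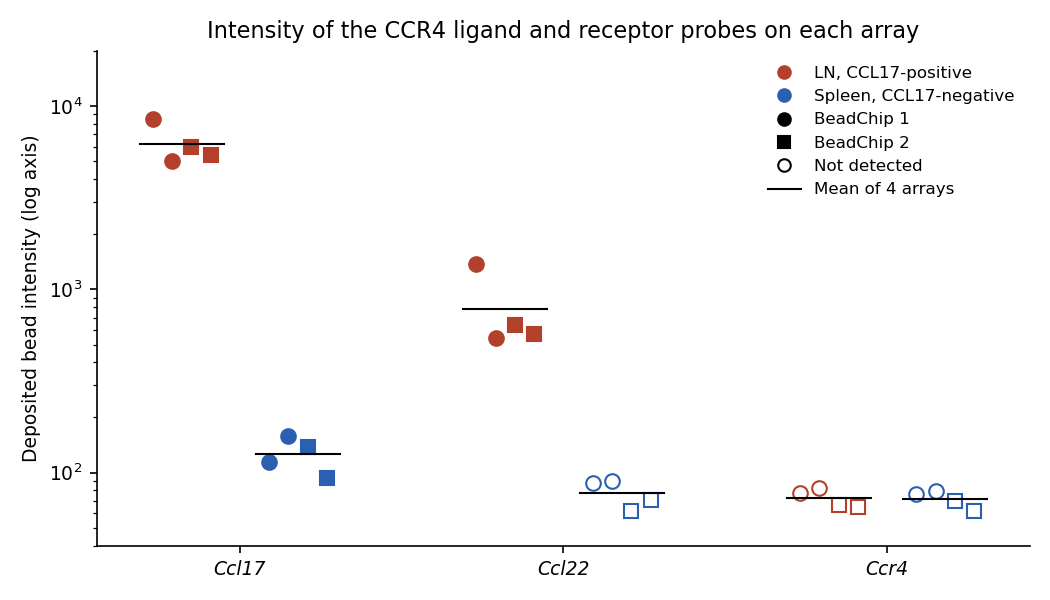
Deposited bead intensity (log axis) of the Ccl17, Ccl22 and Ccr4 probes on each of the 8 arrays, coloured by group, with circles for the first BeadChip, squares for the second, open symbols where the detection p was 0.01 or more, and a line at each mean. Ccl17 lay between 5010.4 and 8508 in LN and between 93.7 and 158 in spleen, Ccl22 was detected only on the LN arrays, and Ccr4 was detected on 0 arrays.

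Within the LN group the wider range of Ccl22 than of Ccl17 rested on replicate 1, and no test compared their spreads. Ccl22 ran from 8.73 in replicate 2 to 10.05 in replicate 1 on the log2 scale, a 2.48-fold spread. Its next highest value was 9.30, in replicate 4. Ccl17 ran from 12.04 in replicate 2 to 12.77 in replicate 4, a 1.66-fold spread. Replicate 2 was the lowest and replicate 3 the next for both genes, and only the order of replicates 1 and 4 was exchanged. With 4 arrays, no correlation between the genes was computed.

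Ccr4, the receptor, gave no signal above background in either group. Its intensity was 77.7, 82.2, 66.6 and 65.0 on LN replicates 1 to 4 and 76.4, 79.1, 69.8 and 61.9 on spleen replicates 1 to 4. Detection p values ran from 0.234 to 0.575 over the 8 arrays. The groups overlapped, and Ccr4 was not tested in the main analysis. When no detection filter was applied, its log2 fold was -0.04 ± 0.07 (SE, adjusted p 0.888 by limma). This says that any Ccr4 RNA lay below what the probe could show here, not that the cells lacked it.

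Markers of T cells, which can carry CCR4, were present in part. Among 17 T cell markers with a probe, 7 were detected on 0 arrays, including the CD3 chain gene Cd3g, and 5 passed the filter, of which Foxp3, Il2ra and Icos were detected on all 8. Cd3d and the T cell kinase gene Zap70 were each detected on 3 LN arrays and 0 spleen arrays, and Cd3e on 2 LN arrays and 1 spleen array. The summed normalized intensity of the list ran from 1287 to 1594 in LN and from 934 to 1217 in spleen, without overlap. Of all single genes tested, 22.2% had groups that did not overlap. The brightest genes of the list were Il2ra (mean log2 level 9.44 in LN, 8.53 in spleen), Foxp3 (8.33 and 7.59) and Icos (6.76 and 8.19). The sum mostly reflects these genes and is no measure of T cell number. The part of the T cell markers in the Ccl17 and Ccl22 differences was not tested. Of the 5 tested, 1 was called higher and 1 lower, against 7.99% and 7.59% of all genes tested. Il2ra, the IL-2 receptor alpha chain that activated dendritic cells also make, was higher in LN (0.91 ± 0.25 SE, adjusted p 0.0327 by limma). The costimulatory receptor gene Icos was lower in LN (-1.43 ± 0.24 SE, adjusted p 0.0022), a call lost on the second BeadChip alone (adjusted p 0.119, the highest of its alternatives, from 0.00106). Foxp3, the regulatory T cell factor, showed a difference of 0.74 ± 0.30 on the log2 scale (adjusted p 0.136). It was called higher with BeadChip as a block (adjusted p 0.0445, within 0.0445 to 0.268 over the alternatives). The call of Il2ra was lost under 10 of the 22 alternatives, among them leaving out spleen replicate 2 or 3 or any LN replicate, with adjusted p values from 0.0137 to 0.234.

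Of 2 genes for proteins that clear or trim the ligands, 1 was tested, and its RNA was not called. Ackr2, the decoy receptor that takes up inflammatory CC chemokines including both CCR4 ligands, was detected on 0 arrays. Dpp4, the surface peptidase that trims CCL22, was detected on every array and had a log2 fold of 0.42 ± 0.25 (SE, adjusted p 0.332 by limma).

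Along chromosome 8, 1 of the 5 tested neighbours of the ligands was called, Cx3cl1, against 15.6% of all genes tested in either direction. Of 13 neighbours in the gene table (3 between the ligands and 5 on each side), 7 had a probe and 5 passed the filter. Cx3cl1, the membrane-bound chemokine fractalkine, had normalized log2 values of 8.24, 8.26, 7.84 and 7.87 on LN replicates 1 to 4. On spleen replicates 1 to 4 it had 5.33, 5.38, 4.92 and 4.93, not detected on any, which makes LN at least 5.68 times as high under this normalization (adjusted p 1.97e-05 by limma). Its log2 fold was 1.66 without background subtraction, under that bound, and the call held under all 21 alternatives that could test it. For both Ccl22 and Cx3cl1 the groups did not overlap, as for 22.2% of all genes tested. Both genes passed the filter only through the LN arrays.

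None of the other neighbours was called, but so few were tested that this shows no trait of the region. On the Ccl22 side, Arl2bp, which encodes a partner of the small GTPase ARL2, had a log2 fold of 0.54 ± 0.38 (SE, adjusted p 0.429), and Pllp was detected on 0 arrays. On the Ccl17 side, Ciapin1, of cytosolic iron-sulfur assembly, had 0.16 ± 0.17 (adjusted p 0.642). Coq9, of coenzyme Q synthesis, had 0.64 ± 0.27 (adjusted p 0.156). The adaptor gene Dok4 had 0.00 ± 0.38 (adjusted p 0.998), and the probe of Polr2c, an RNA polymerase II subunit, was detected on 0 arrays. Coq9 passed the threshold with BeadChip as a block (adjusted p 0.0421), with the replicate number as a block (adjusted p 0.05, just below the limit), with median scaling (adjusted p 0.0431) and without spleen replicate 4 (adjusted p 0.0258), within a range of 0.0258 to 0.405. Its log2 fold was 0.82 without that array.

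**Figure D2:**
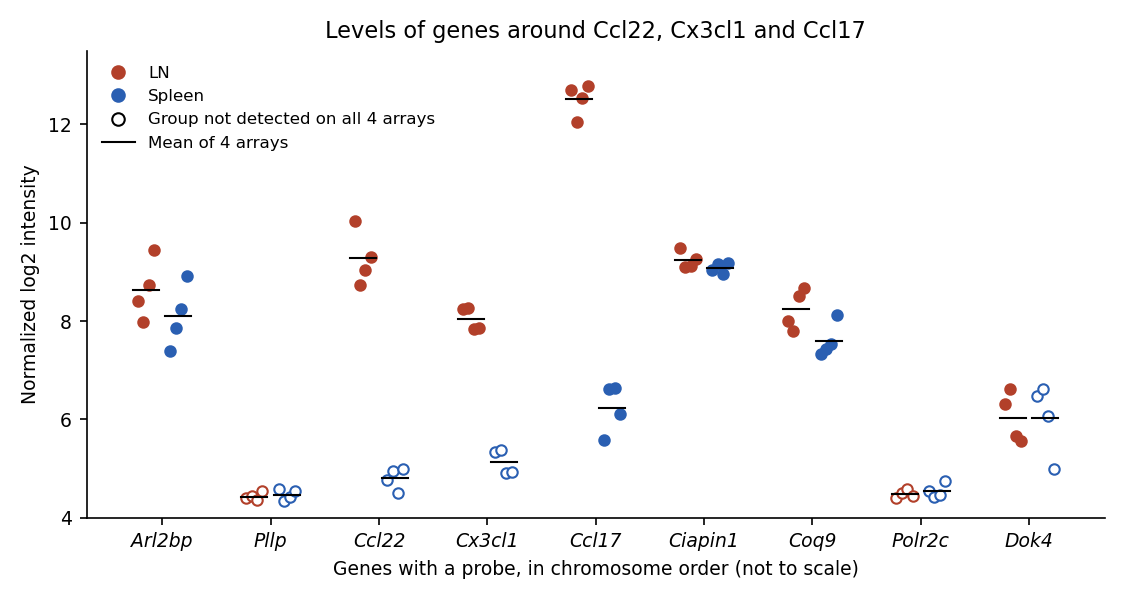
Normalized log2 intensity of the genes with a probe in chromosome order around Ccl22, Cx3cl1 and Ccl17, with 4 LN and 4 spleen arrays per gene, a line at each mean and open symbols where a group was not detected on all 4 arrays. The 3 chemokine genes had LN values above all spleen values, while the LN and spleen values of Arl2bp, Ciapin1, Coq9 and Dok4 overlapped.

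Other chemokine ligands went both ways. Of the 39 ligand genes besides Ccl17 on the list, 36 had a probe, 14 of these were detected on 0 arrays, and 15 passed the filter. Among the 15, 8 were called higher in LN, against 7.99% of all genes tested, and 4 lower, against 7.59%. Of those 8, 5 passed the filter only through the LN arrays, so their count cannot be read as support. The median log2 fold of the 15 was 0.92, against 0.03 over all genes tested. It includes those 5 genes, whose folds are set against background in spleen, so it cannot be read as a shift of the family.

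Beside Ccl22 and Cx3cl1, the B cell attractant gene Cxcl13 exceeded its spleen level at least 3.29-fold (adjusted p 0.000147 by limma). Ccl12, an attractant of monocytes, was at least 2.44-fold higher (adjusted p 0.000169). Cxcl2, an attractant of neutrophils, was detected on all arrays and ran from 9.29 to 10.76 in LN and from 7.51 to 8.87 in spleen on the log2 scale (fold 2.12 ± 0.39 SE, adjusted p 0.00419).

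Lower in LN were the CXCR3 ligand genes Cxcl10 (-4.21 ± 0.25 SE, adjusted p 9.37e-06) and Cxcl9 (-2.92 ± 0.21 SE, adjusted p 1.47e-05). So were the inflammatory CC chemokine genes Ccl4 (-3.55 ± 0.50 SE, adjusted p 0.000869) and Ccl3 (-2.49 ± 0.33 SE, adjusted p 0.000598). The order of LN replicates was not shared: Cxcl10 was highest in replicate 1, at 9.98, and lowest in replicate 4, at 8.86, whereas Ccl22 was lowest in replicate 2.

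Among the receptors of the family, 23 had a probe, 15 were detected on 0 arrays (Ccr4 and Ccr8 among them) and 8 passed the filter. By limma, 0 of the 8 were called higher in LN (0 also at an unadjusted p under 0.05) and 4 were called lower, which is 50% against 7.59% of all genes tested. Ccr7, which draws dendritic cells into lymph nodes, was not called (-0.03 ± 0.23 SE, adjusted p 0.961). Lower in LN were Cxcr5, the receptor of CXCL13 (-2.01 ± 0.26, adjusted p 0.000559), the atypical receptor gene Ackr1 (-1.77 ± 0.22, adjusted p 0.000473), and the chemerin-binding Ccrl2 (-1.62 ± 0.40, adjusted p 0.021). So was Ccr6, to which CCL20 binds (-1.16 ± 0.26, adjusted p 0.0118). Ackr1 rose over spleen replicates 1 to 4 (7.13, 7.31, 7.74 and 7.91 on the log2 scale). The erythroid gene Hba-a1 had 10.44, 12.37, 13.67 and 13.67 there. The part of erythroid transcripts in the Ackr1 call was not tested. With median scaling and on the second BeadChip alone, the calls of Ccrl2 and Ccr6 were lost. That of Ccrl2 was also lost without spleen replicate 1 or 2 or LN replicate 3 or 4, with adjusted p values from 0.00015 to 0.15 over the alternatives, against 0.00488 to 0.181 for Ccr6. The median log2 fold of the 8 receptors was -0.82.

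**Figure D3:**
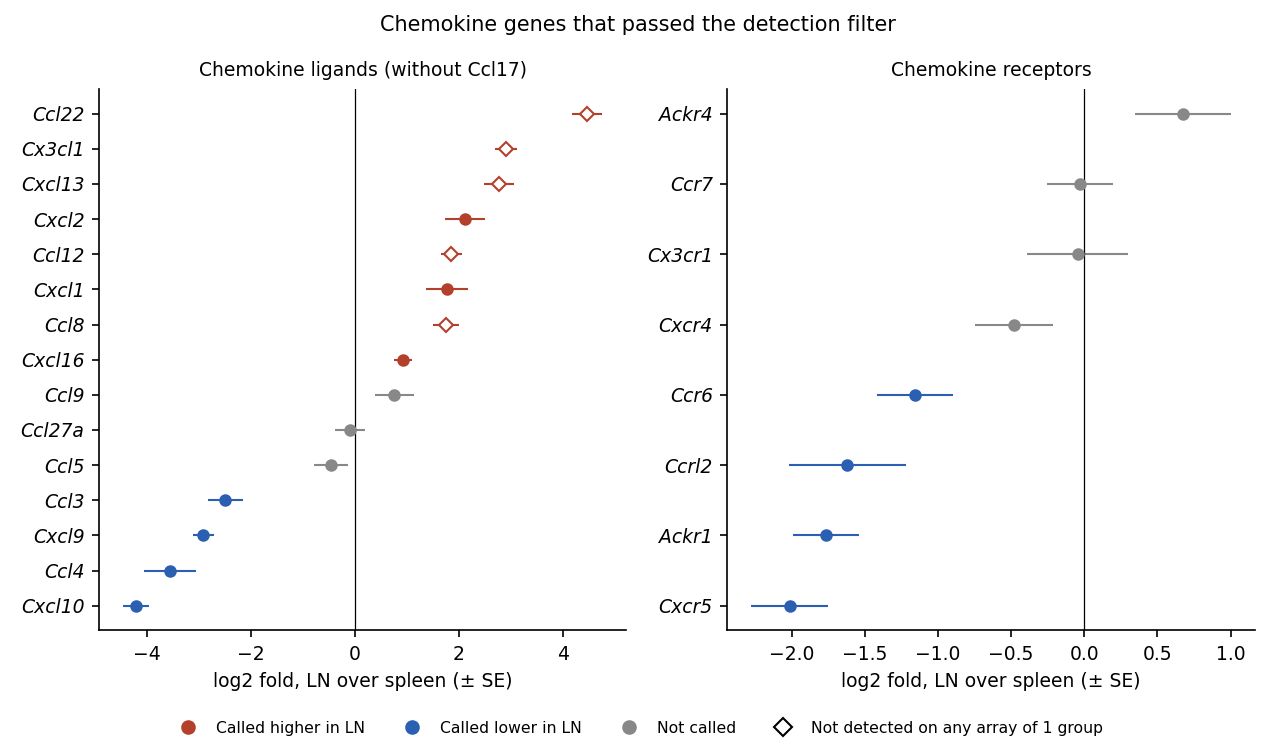
Log2 fold of LN over spleen with its SE for the 15 chemokine ligand genes besides Ccl17 (left) and the 8 chemokine receptor genes (right) that passed the detection filter. Colours give the call and open diamonds mark genes not detected on any array of 1 group, whose fold is not a measured size. Among the ligands detected in both groups, Cxcl2 was highest at 2.12 and Cxcl10 lowest at -4.21.

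Pathways known to switch on the CCR4 ligands showed no called gene. Of 22 genes listed, 20 had a probe and 18 passed the filter, 17 of which were detected on every array. By limma, 0 of the 18 were called higher and 0 lower (3 and 1 at an unadjusted p under 0.05), against 15.6% of all genes tested in either direction, with a median log2 fold of 0.09. The groups did not overlap for 3 of the 18, against 22.2% of all genes tested.

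Named members of these pathways were not called. Irf4, a transcription factor of CD11b+ dendritic cells, differed by 0.01 ± 0.35 on the log2 scale (SE, adjusted p 0.992 by limma) and Stat6, which carries the IL-4 signal, by -0.33 ± 0.27 (adjusted p 0.509). The IL-4 receptor gene Il4ra had -0.12 ± 0.21 (adjusted p 0.788) and the GM-CSF receptor alpha chain Csf2ra 0.39 ± 0.30 (adjusted p 0.48). Stat5a, a transducer of the GM-CSF signal, had 0.18 ± 0.40 (adjusted p 0.839) and Kdm6b, a histone demethylase that acts upstream of Irf4, -0.27 ± 0.40 (adjusted p 0.75). Crlf2, the TSLP receptor chain, and Stat5b were detected on 0 arrays. With SEs of 0.21 to 0.40, differences of this size were not resolved, which does not show that levels were equal.

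Il13ra1, Csf2rb, the gene of the receptor chain shared by GM-CSF, IL-3 and IL-5, and Csf2rb2 had the smallest adjusted p values of these genes. Csf2rb had normalized log2 values of 10.19, 8.25, 10.10 and 9.93 on LN replicates 1 to 4 and 7.14, 6.94, 7.76 and 9.38 on spleen replicates 1 to 4. LN replicate 2 and spleen replicate 4 made these groups overlap, and the log2 fold was 1.81 ± 0.57 (SE, adjusted p 0.0591 by limma). Its close relative Csf2rb2, which probes may not fully separate from it, had 0.97 ± 0.31 (adjusted p 0.0612). The IL-13 receptor gene Il13ra1 had 0.65 ± 0.20 (adjusted p 0.0555), and the transcription factor gene Klf4 -1.02 ± 0.38 (adjusted p 0.103).

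With the replicate number as a block, 3 of these genes were called higher and 1 lower: Csf2rb (adjusted p 0.00841), Csf2rb2 (adjusted p 0.0273), Il13ra1 (adjusted p 0.0358) and, lower, Klf4 (adjusted p 0.00826). The alternatives gave adjusted p values from 0.00208 to 0.223 for Csf2rb, from 0.0273 to 0.21 for Csf2rb2, from 0.0358 to 0.298 for Il13ra1 and from 0.00826 to 0.307 for Klf4. Single arrays changed the count too. Without spleen replicate 4, 3 were higher, Csf2rb (log2 fold 2.36), Il13ra1 (0.54) and Csf2ra (0.67). Without LN replicate 2 Csf2rb alone was called, at 2.26, and without spleen replicate 1 Il13ra1 alone, at 0.77.

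Of the 8 tested genes of pathways that restrain the ligands, 2 were called lower in LN, which is 25% against 7.59% of all genes tested, and 0 higher by limma (0 at an unadjusted p under 0.05). Ifngr1, the ligand-binding chain of the interferon gamma receptor, had log2 values of 7.90, 8.05, 8.14 and 8.04 on LN replicates 1 to 4 and 9.46, 9.35, 9.94 and 9.88 on spleen replicates 1 to 4. Its groups did not overlap, as for 22.2% of all genes tested (fold -1.63 ± 0.20 SE, adjusted p 0.000389). Socs3, an inhibitor of cytokine signalling, was lower as well (-1.49 ± 0.22 SE, adjusted p 0.00121), a call lost with median scaling (adjusted p 0.0659, the highest of its alternatives, which began at 0.000247). Socs1, its relative that curbs the interferon signal, had -0.89 ± 0.29 (adjusted p 0.0636) and was called lower with the replicate number as a block (adjusted p 0.0379, within 0.0036 to 0.644 over the alternatives). The median log2 fold of the 8 was -0.50. The list holds receptors beside inhibitors of signals, so neither its count nor its median can be read as more or less restraint.

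**Figure D4:**
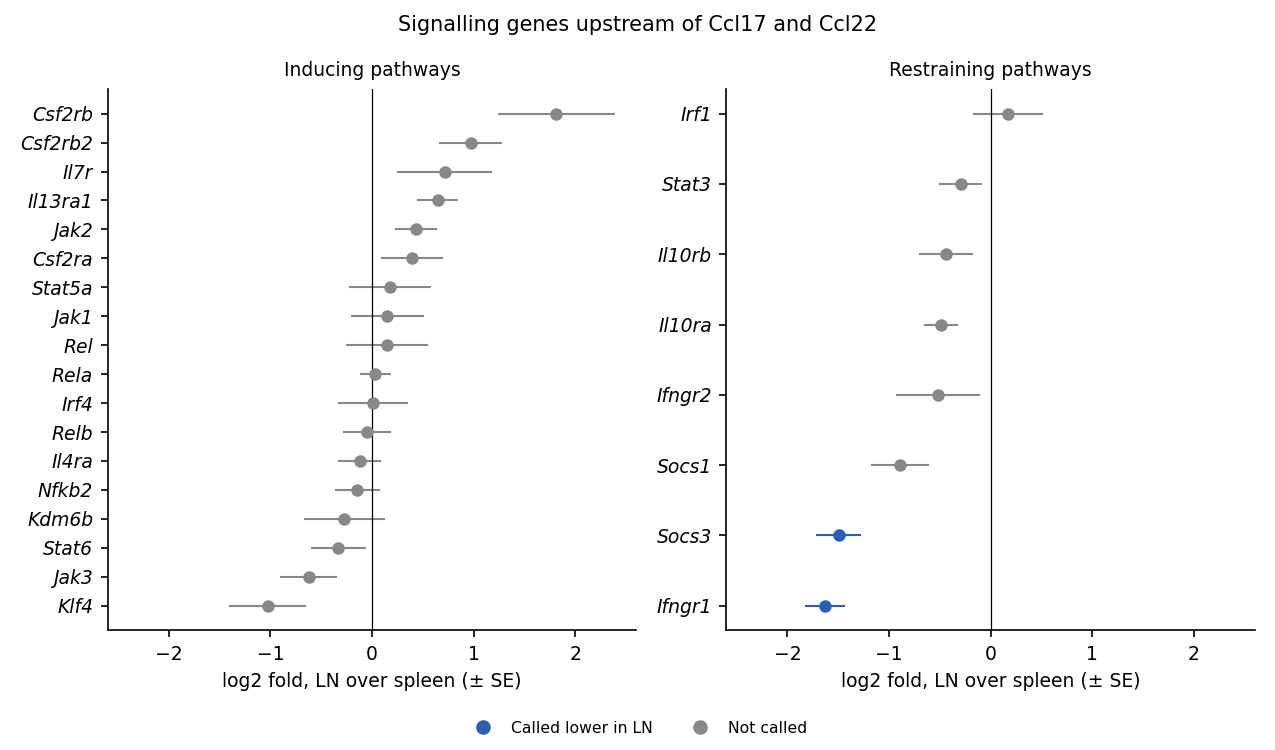
Log2 fold of LN over spleen with its SE for the 18 tested genes of pathways that induce the CCR4 ligands (left) and the 8 of pathways that restrain them (right), coloured by the call. All 18 inducing genes were uncalled, with Csf2rb highest at 1.81, and Ifngr1 and Socs3 were called lower.

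Downstream of CCR4 and other chemokine receptors, G proteins, arrestins and regulators were mostly uncalled. Of 15 tested genes, 2 were higher in LN and 1 lower, which is 13.3% and 6.67%, near the share over all genes. Rgs10, a brake on G protein signalling, was higher (1.90 ± 0.30 SE, adjusted p 0.00188 by limma) and Rgs2, another such brake, lower (-1.19 ± 0.23 SE, adjusted p 0.00606). Arrb1, which encodes an arrestin that silences receptors, exceeded its spleen level at least 1.62-fold (adjusted p 0.0193). It passed the filter only through the LN arrays, so its part in the count cannot be read as support. On the second BeadChip alone the calls of Rgs2 (adjusted p 0.0976, the highest of its alternatives, from 0.00315) and Arrb1 were lost. That of Arrb1 was also lost without spleen replicate 1 or 2 or LN replicate 3 or 4, with adjusted p values from 0.00112 to 0.0857.

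The genes whose pattern over the 8 arrays was most like that of each ligand were found by the root mean square distance of log2 levels, each gene centred on its own mean. Since the groups differ so strongly, this measure mostly ranks genes by the size of the same difference, and it is a description without a test. Nearest to Ccl17 was Ppp1r1a, a protein phosphatase inhibitor gene, at 0.57 log2 units. Next came the synaptic vesicle gene Syngr3 at 0.72, the scaffold gene Slc9a3r2 at 0.76, the water and glycerol channel gene Aqp9 at 0.96 and Ccl22 itself at 0.998. The median distance of all genes from Ccl17 was 3.16.

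Nearest to Ccl22 were Slc9a3r2 at 0.37, Stra6, a retinol transporter gene, at 0.40, Syngr3 at 0.49, the cadherin gene Cdh26 at 0.56 and Fndc5, the irisin precursor gene, at 0.59, against a median of 2.29. Ccl17 was 40th among the genes nearest to Ccl22. Ppp1r1a, Syngr3, Slc9a3r2, Stra6 and Cdh26 were, like Ccl22, detected on all 4 LN arrays and 0 spleen arrays, and Aqp9 and Fndc5 on all 8. With the authors' processed values, 3 of the 5 names were shared for each ligand.

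**Figure D5:**
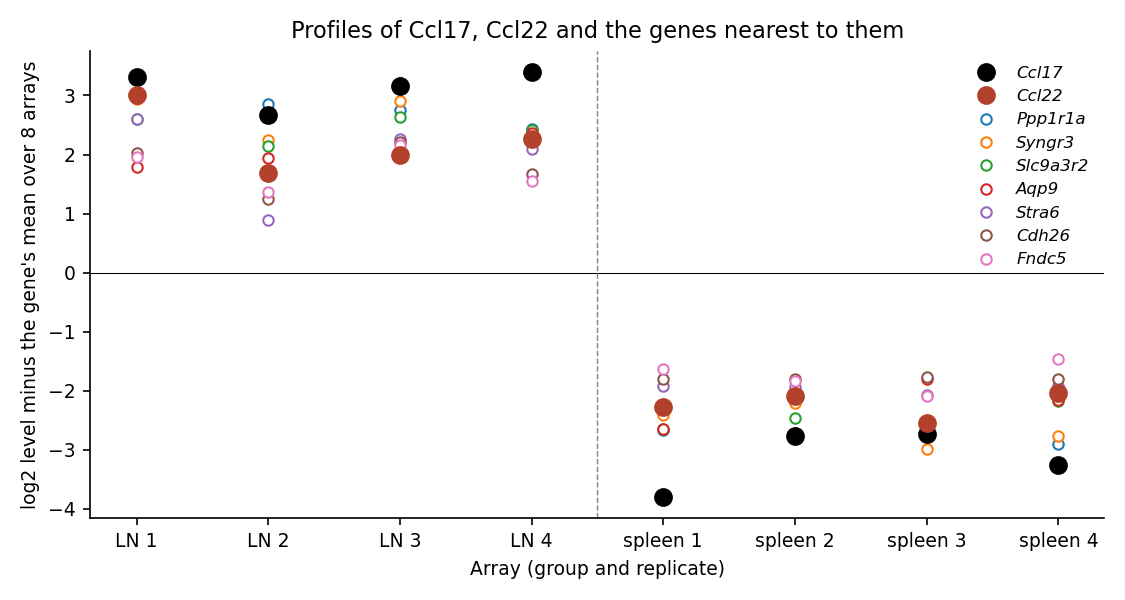
Log2 level minus the gene's own mean over the 8 arrays for Ccl17 and Ccl22 (filled) and the genes nearest to them in pattern (open), by group and replicate. All genes shown lay above 0 on each LN array and below 0 on each spleen array, and Ccl17 spread the farthest, with spleen replicate 1 its lowest.

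The labelled cell type was checked by its markers. Of 12 dendritic cell markers, 9 passed the filter and 0 were called in either direction by limma (1 lower at an unadjusted p under 0.05), where 15.6% of all genes tested were called. Zbtb46, H2-Ab1, Cd74 and Sirpa were among 8 detected on all 8 arrays. Flt3 was detected on 2 LN arrays and 0 spleen arrays, and Cd209a on 0 LN arrays and 1 spleen array. The CD11c gene Itgax passed detection on 3 LN and 3 spleen arrays (-0.51 ± 0.37 SE, adjusted p 0.436). The CD11b gene Itgam did so on a single LN array, so the array gave little signal for that sort marker. The genes for CD8alpha and NK1.1, Cd8a and Klrb1c, were detected on 0 arrays.

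Markers of other cells that can make or dilute Ccl22 were measured beside it. Arg1, Retnla, Chil3 and Ccl24, genes of alternatively activated macrophages that also make CCL22, and Cd207 and Epcam of Langerhans cells were detected on 0 arrays. The others of these lists were Mrc1, detected on 3 LN arrays and 1 spleen array and not called (0.34 ± 0.22 SE, adjusted p 0.38), and Cdh1, detected on 1 array of each group. Of the 6 macrophage markers with a probe, 4 were tested and 0 called by limma (1 higher at an unadjusted p under 0.05). Over all genes tested 15.6% were called in either direction, a share to set beside each count here. The summed normalized intensity of the macrophage markers was 813 to 1049 in LN and 702 to 1043 in spleen. With the replicate number as a block, Vcam1 of this list was called higher (0.83, adjusted p 0.0159, within 0.0159 to 0.466 over the alternatives). Erythroid transcripts moved with the spleen group. All 5 measured were lower in LN by limma, against 7.59% of all genes tested. Alas2 of these, detected on 0 LN arrays, passed the filter only through the spleen arrays. The summed normalized intensity of the erythroid markers ran from 116 to 374 in LN and from 5006 to 39733 in spleen. Hba-a1, a globin gene, had a log2 fold of -6.66 ± 0.69 (SE, adjusted p 0.000137), and its copies may share probe signal. Among 2 tested B cell markers, Cd22 was lower in LN (-2.13 ± 0.40 SE, adjusted p 0.00469). Cd22 was detected on 1 LN array and 4 spleen arrays, so its fold is set largely against background and is not a measured size. Cd79b, detected on all 8 arrays, was not called (-0.43 ± 0.26 SE, adjusted p 0.323), and Ms4a1 and Pax5 were detected on 0 arrays. The 3 tested NK cell markers, Klrd1, Klrk1 and Prf1, were detected on all 8 arrays, and Ncr1 and Klrb1c on 0. By limma 0 of the 3 were called (0 at an unadjusted p under 0.05). Among 3 tested plasmacytoid dendritic cell markers Bst2 was lower (-0.79 ± 0.21 SE, adjusted p 0.0318), a call lost under 8 of 22 alternatives. The part of these transcripts in the Ccl22 difference was not tested.

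Over the series, mean intensity ran from 239 to 521 per array and 13743 to 14985 probes were detected, with spleen replicate 4 lowest in both. Of 8252 genes tested, 659 were called higher in LN and 626 lower. With median scaling of the arrays 66.5% of calls were higher against 51.3%, with the median log2 fold of all genes at 0.24 in place of 0.03. Without spleen replicate 4, 1006 genes were higher and 985 lower.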

How the data were processed

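Labelled cRNA of the 8 samples was hybridised to Illumina BeadChips, per the labels' protocols. Per the file headers, the deposited non-normalized table holds 1 bead intensity (linear scale) and 1 detection p-value per probe and array. The table of values processed by the authors is log2, shares its quantiles between arrays, follows the log2 intensity at a correlation of 0.999 or more, and served as an alternative. The submitters' processing notes name Partek and no role for it. Scanner software and background step were not stated.

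Intensities were corrected against negative control levels, estimated from detection p, then quantile-normalized and logged after adding an offset of 16 (neqc of limma 3.58.1 in R 4.3.3). A probe was kept if its detection p was under 0.01 on 4 or more of the 8 arrays (14726 of 45281), with the brightest kept probe per gene. All 8252 genes entered 1 fit of 2 group means (lmFit, eBayes with intensity trend). A call means a two-sided p under 0.05 after Benjamini-Hochberg adjustment over all of them. A fold is given as a bound for a gene detected on all 4 arrays of 1 group and 0 of the other. No pair of arrays was a repeat (highest correlation 0.993). The script was tested on simulated data. Of the probes, 34885 had 1 symbol, 18 had several and 10378 are unnamed here. Symbols were updated by Entrez identifier through RefSeq's gene table (GRCm38.p6), also used for gene order and promoters. Figures used Python 3.11.15, pandas 2.3.3 and matplotlib 3.10.9.

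The members, the 16 gene lists, the motifs and the alternatives were chosen with earlier results of these data known. Genes named were the members, a fixed set of 11 pathway genes, the sort markers, the chromosome neighbours, the 5 genes nearest to each ligand (predicted genes passed over), and per list up to 5 called per direction or else the 3 largest folds; further names were chosen after their values were seen. Samples with the same replicate number deviated together (correlations of 0.31, 0.57, 0.27 and 0.54 for numbers 1 to 4), but LN samples 1, 2 and 3 correlated more with the other spleen sample of their BeadChip (0.41, 0.58 and 0.42), so number and BeadChip cannot be told apart. The fit with the number as a block is given where it changes a call. The number of arrays limits the precision.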

Additional observations from a re-analysis of the deposited data

Results flagged for a closer look

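Some single samples lay far from the other 3 of their group, by Dixon's criterion, which flags about 1 in 20 groups by chance. The 150 gene and group pairs examined gave 8 such samples. In the LN group, Csf2rb was low in replicate 2 (8.25 on the log2 scale against 9.93 to 10.19), Il2ra low in replicate 3 (9.20 against 9.50 to 9.54), Kmo low in replicate 3 (5.73 against 6.46 to 6.58) and Ccl8 high in replicate 1 (6.89 against 5.88 to 5.99). In the spleen group, replicate 4 was low for Jak2 (13.04 against 13.90 to 13.98) and high for Jak3 (9.70 against 8.51 to 8.70) and Icos (8.49 against 8.07 to 8.11). Stra6 was low in spleen replicate 3 (4.35 against 4.49 to 4.51), where it was below detection on every array. None of Ccl17, Ccl22 or Ccr4 had such a sample.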

How the results depend on the processing

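Ccl22 kept its direction and call under all 21 alternatives that could test it, with log2 folds, set against a background level in spleen, of 2.84 (no background subtraction) to 5.59 (offset of 1) and adjusted p values of 2.91e-06 to 0.00338. Where detection on all 8 arrays was required it could not be tested. Leaving out 1 array gave 4.19 to 4.64. With the replicate number as a block its fold was 4.48 ± 0.26 (adjusted p 2.82e-05). The log2 fold of Ccl17 was 5.46 with the authors' values, 5.27 without background subtraction and 5.73 with an offset of 50, and 6.01 to 6.42 leaving out 1 array. Genes called higher and lower numbered 179 and 182 on the second BeadChip alone, and 453 to 1006 and 420 to 985 leaving out 1 array. With median scaling 315 were lower. Ligands called higher numbered 3 where detection on all 8 arrays was required. Receptors called lower numbered 2 with median scaling and 2 on the second BeadChip. Inducing pathway genes called higher numbered 1 with median scaling, 3 with the mean of passing probes, 3 with BeadChip as a block, 3 with the replicate block, 2 on the first BeadChip and 0 to 3 leaving out 1 array. Those called lower numbered 1 with either block and 1 on the first BeadChip. The cause of these shifts was not tested. The replicate block changed no call of a named gene other than those given above. Signal over background limits Ccl22 in spleen and Ccr4 everywhere.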
